A study of Homo sapiens with 12 samples.

Results

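The genes of cholesterol and fatty acid synthesis that sterol regulatory element-binding proteins (SREBPs) drive were followed in HCC827 cells through EGFR inhibition, with and without fibroblasts sharing the medium. The set held 36 genes, named by symbol as known SREBP targets or pathway components. A sterol arm of 24 genes ran from HMGCS1 to the regulator SCAP, and a fatty acid arm of 12 genes ran from FASN to ACSL3. Of the 36, 34 had a probe that the platform annotation gave 1 symbol, on 51 probes in all. FDFT1 and ACSL3 were not analysed here. Of these 51 probes, 45 were detected (p under 0.05) on 3 or more of the 12 arrays and stayed in. STARD4, a sterol transport protein, was lost at this step, which left 33 members among 13577 genes tested, 22 of the sterol arm and 11 of the fatty acid arm. The brightest such probe stands for a gene.

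RNA was taken from HCC827, a lung adenocarcinoma line with an activating EGFR mutation, and hybridised to Illumina bead arrays. Gefitinib, an inhibitor of the EGFR kinase, was used at 0.5 µM, and MRC-5, a line of normal lung fibroblasts, was the co-culture partner. The groups, of 3 arrays each, were HCC827 with DMSO in monoculture, HCC827 with gefitinib in monoculture, HCC827 in co-culture with MRC-5 and no gefitinib, and HCC827 in co-culture with MRC-5 after gefitinib. Treatment began after 24 h, a PBS wash followed, and RNA was taken after a further 48 h, with inserts of 1 µm pores between the cell types in the co-cultures. All groups came from a single cancer line. The labels name RPMI 1640 for routine growth and EMEM for co-culture. The sources used here do not state which medium the monocultures had in the last 48 h, or whether the drug was still there.

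Each array detected 43.4% to 46.5% of its probes. Within a group, arrays correlated at 0.986 to 0.991 (Pearson's r) over the 13577 genes. Median scanner intensity was 99.1 to 103 for the 6 arrays of monocultures and 106 to 110 for the 6 of co-cultures, and the scanner table listed the rows of these 2 sets in different orders. Culture state therefore cannot be told apart from whatever else separated the 2 sets, the medium included. All 10 epithelial carcinoma markers were kept, with a summed intensity of 30401 to 31300 with DMSO, 30027 to 30594 with gefitinib, 27905 to 29137 in co-culture and 24482 to 25606 in co-culture with gefitinib. Of 15 lung fibroblast markers, 9 were kept, while COL3A1, THY1, PDGFRA, PDGFRB, FAP and POSTN were not. The summed intensity of the 9 was 2213 to 2252 with DMSO, 4743 to 5300 with gefitinib alone, 2582 to 2897 in co-culture and 2357 to 2840 in co-culture with gefitinib. VIM, which carcinoma cells can express themselves, was by far the brightest of the 9, with mean levels of 10.82, 12.00, 11.19 and 11.17 in these groups. In co-culture without drug none of the 9 were called by limma (2 lower and 1 higher at an unadjusted p under 0.05). Against DMSO, 4 of the 9 changes were negative and 5 positive. COL1A1, COL5A1 and LUM had changes of -0.47, -0.33 and -0.83 (log2), and VIM, COL6A3 and COL1A2 of 0.36, 0.17 and 0.13. The sum was highest in the cancer cells treated without fibroblasts, where 5 of the 9 were called higher, beside 16.9% of all genes. The part of this sum in the lipid gene changes was not tested. In bulk RNA, fewer cells of a type and less RNA per cell cannot be told apart.

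As background, SREBP precursors sit in the endoplasmic reticulum bound to SCAP, and INSIG1 and INSIG2 hold the complex there while sterols are plentiful. When sterols fall, SCAP escorts the precursor to the Golgi, proteases free its amino-terminal part, and that part enters the nucleus and binds sterol regulatory elements in target promoters. SREBF2 encodes the form best known for cholesterol synthesis, and SREBF1 encodes forms that include the main driver of fatty acid synthesis. Growth factor signalling through PI3K, AKT and mTORC1 is known to raise SREBP activity, and INSIG1 and SREBF1 are themselves SREBP targets.

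Promoters were read to see which members carry letters like the element that SREBPs bind. RefSeq windows on GRCh38.p14, from 250 bases before to 50 after the annotated start, were found for 32 of the 36 genes. Every motif was searched on both strands. TCACNCCAC lay in 2 of the 32, SREBF2 and ACSL1 (6.25%), against 1.388% of 27305 genes with such a window. The shorter CACNCCAC, which lies inside it and was added after values were seen, lay in 7 of 32 (21.88%) against 7.046%. The 7 were SREBF2, INSIG1, IDI1, SC5D, SCD, ACACA and ACSL1. CCAAT, the letters bound by NF-Y, a known partner of SREBPs, was also added later and lay in 24 of 32 (75%) against 39.72%. A match describes letters only, and no test of these shares was made.

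Windows of 4 members whose levels are described below are printed. SREBF2 (chr22:41832855-41833154) holds the full motif, INSIG1 (chr7:155297628-155297927) and SCD (chr10:100346983-100347282) hold the shorter one, and TM7SF2 (chr11:65111622-65111921) holds neither. Whether the letters go with the changes was not tested. Of the 7 with CACNCCAC, INSIG1, IDI1 and SCD fell with gefitinib in monoculture, and SREBF2, SC5D, ACACA and ACSL1 were not called there. HMGCS1, EBP, DHCR7, MSMO1 and FDPS are among the members that fell there and hold neither form. All 4 lie on the plus strand of GRCh38.p14. TM7SF2 was named beforehand, though with earlier results of these data known, and the others were added after values were seen. Capitals mark CACNCCAC, TCACNCCAC and CCAAT or their reverse complements.
SREBF2: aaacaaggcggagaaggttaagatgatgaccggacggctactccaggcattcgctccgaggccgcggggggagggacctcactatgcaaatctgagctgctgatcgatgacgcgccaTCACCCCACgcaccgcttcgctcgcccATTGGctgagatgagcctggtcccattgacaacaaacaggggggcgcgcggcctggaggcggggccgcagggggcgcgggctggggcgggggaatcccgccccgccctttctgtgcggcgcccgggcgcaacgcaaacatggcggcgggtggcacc
INSIG1: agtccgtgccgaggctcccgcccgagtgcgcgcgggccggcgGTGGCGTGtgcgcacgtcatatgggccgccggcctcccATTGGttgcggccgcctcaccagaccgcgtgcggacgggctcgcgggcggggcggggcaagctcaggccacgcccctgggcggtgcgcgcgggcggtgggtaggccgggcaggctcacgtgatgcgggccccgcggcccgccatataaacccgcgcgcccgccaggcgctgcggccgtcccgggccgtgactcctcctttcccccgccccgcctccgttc
SCD: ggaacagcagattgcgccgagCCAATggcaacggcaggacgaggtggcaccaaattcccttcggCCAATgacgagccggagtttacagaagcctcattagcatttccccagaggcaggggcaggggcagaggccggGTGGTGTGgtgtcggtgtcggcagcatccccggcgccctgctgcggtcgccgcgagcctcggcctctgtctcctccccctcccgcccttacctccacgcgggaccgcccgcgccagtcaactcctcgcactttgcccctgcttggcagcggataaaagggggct
TM7SF2: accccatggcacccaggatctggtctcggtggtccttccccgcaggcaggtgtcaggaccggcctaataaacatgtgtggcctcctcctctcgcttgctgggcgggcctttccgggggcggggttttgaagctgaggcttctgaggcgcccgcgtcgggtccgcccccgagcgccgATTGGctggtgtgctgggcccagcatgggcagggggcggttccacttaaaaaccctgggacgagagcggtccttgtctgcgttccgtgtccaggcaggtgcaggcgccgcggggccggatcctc

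The first comparison asked how gefitinib changed these genes in cells grown alone. Most of the sterol arm fell, TM7SF2 rose against it, and the fatty acid arm lost its elongase ELOVL6 and desaturase SCD most. Of the 22 tested members of the sterol arm, 15 fell, 1 rose and 6 were not called, where a call is an adjusted p under 0.05 in limma with Benjamini-Hochberg adjustment over all 13577 genes. Across those genes, 14.5% fell and 16.9% rose, 1974 and 2301 genes, or 2347 and 1688 when arrays were scaled to a common median instead of quantile-normalized. The arrays of the 2 groups did not overlap, gefitinib lower, for 17 of the 22 and for 8 of the 11 of the fatty acid arm, against 21.6% of all genes. The median change of the sterol arm was -0.59 (log2), with a range of -1.49 to 1.56, against 0.01 over all genes. Of the 11 members of the fatty acid arm, 4 fell and 7 were not called, with a median of -0.25 and a range of -1.86 to 0.27. Levels below are normalized log2 intensities per array, to be compared only within a probe, and changes are log2 differences ± SE with n = 3 arrays per group.

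**Figure D1:**
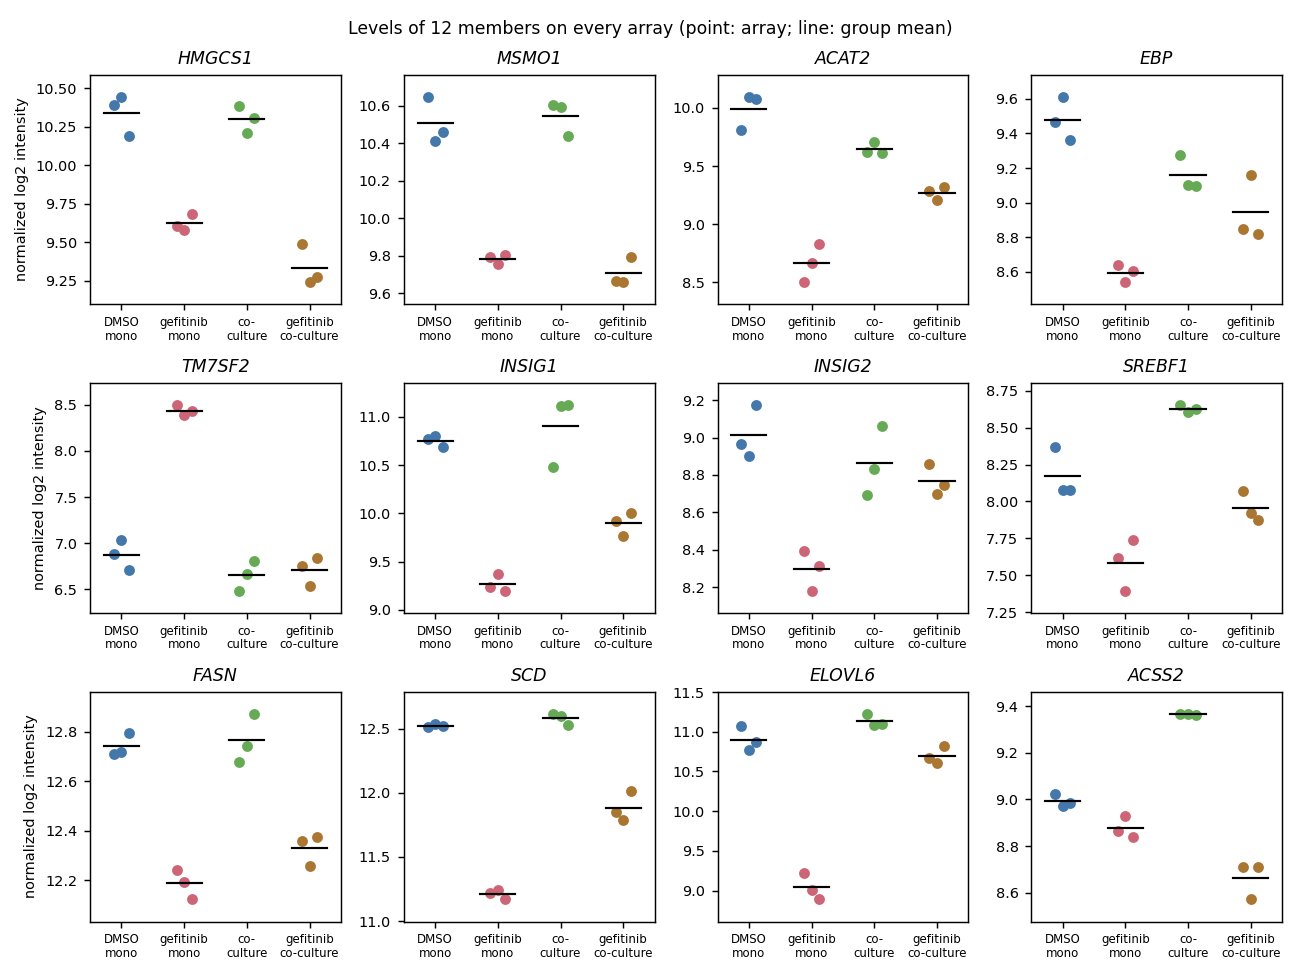
Normalized log2 intensity of selected members on each of the 12 arrays, 1 panel per gene, with points for arrays and a line for the mean of the 3 arrays of a group. TM7SF2 stands high in gefitinib monoculture only, while ELOVL6, ACAT2, INSIG1 and SCD stand lowest there.

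The mevalonate segment turns acetyl-CoA into isoprenoid units. ACAT2, the cytosolic thiolase at its entry, had levels of 9.81, 10.10 and 10.08 with DMSO and 8.50, 8.66 and 8.83 with gefitinib. The groups lay more than a log2 unit apart at the means and did not overlap, and the change was -1.33 ± 0.11 (adjusted p = 4.45e-06). HMGCS1, which makes HMG-CoA, went from 10.39, 10.45 and 10.19 to 9.60, 9.58 and 9.68. Every gefitinib array lay below every DMSO array, with a change of -0.72 ± 0.10 (adjusted p = 2.70e-04). IDI1, the isomerase of isopentenyl diphosphate, had 6.75, 6.68 and 6.54 with DMSO and 5.60, 5.88 and 6.02 with gefitinib, a fall of 1.77-fold (adjusted p = 0.00103). MVK, which phosphorylates mevalonate, MVD, which decarboxylates mevalonate diphosphate, and FDPS, which builds farnesyl diphosphate, also fell, by changes of -0.69, -0.50 and -0.58. The call of MVK was lost without the first gefitinib monoculture array (-0.54, adjusted p = 0.0541). PMVK, the kinase between MVK and MVD, was not called (-0.15, adjusted p = 0.391).

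From squalene onward the arm split. SQLE, the squalene epoxidase and a slow step of the pathway, had 9.47, 9.42 and 9.56 with DMSO and 8.73, 8.82 and 8.62 with gefitinib. All 3 gefitinib values were lower, and the change was -0.76 ± 0.14 (adjusted p = 0.00187). LSS, which closes the sterol ring in the next step, had mean levels of 8.76 ± 0.061 and 8.68 ± 0.027 (SD) and was not called. CYP51A1, the lanosterol demethylase, fell (-0.56 ± 0.16, adjusted p = 0.019), a call lost without any 1 of 4 arrays (DMSO 1 or 2, gefitinib 1 or 2; adjusted p 0.0592 to 0.0764). MSMO1 and NSDHL, which remove the methyl groups at carbon 4, fell by changes of -0.72 and -0.36. HSD17B7 and SC5D were not called. EBP, the isomerase that moves the ring double bond, had 9.47, 9.61 and 9.36 with DMSO and 8.64, 8.54 and 8.61 with gefitinib, with no overlap (-0.89 ± 0.11, adjusted p = 1.15e-04). DHCR7, a reductase at the end of the route to cholesterol, had 9.73, 9.71 and 9.81 with DMSO and 9.01, 9.13 and 9.08 with gefitinib. Its 3 gefitinib values lay close together below all DMSO values (-0.68 ± 0.086, adjusted p = 1.09e-04).

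TM7SF2 moved against the arm. It encodes a sterol C14 reductase, which acts just after CYP51A1. Its levels were 6.88, 7.03 and 6.71 with DMSO and 8.49, 8.38 and 8.43 with gefitinib. The gefitinib arrays were close to each other and far above the DMSO arrays, 2.95-fold at the means (1.56 ± 0.12, adjusted p = 2.49e-06). LBR, no member of the set, is the other human enzyme with this activity. It had 6.79, 7.13 and 7.25 with DMSO and 5.98, 6.05 and 5.72 with gefitinib. LBR thus fell where TM7SF2 rose, with a change of -1.14 ± 0.16 (adjusted p = 1.84e-04). LBR has other kept probes, dimmer ones, whose changes of -0.38 and -0.02 were not called.

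The regulators showed 3 patterns. INSIG1, the sterol-dependent anchor of SCAP, had 10.77, 10.80 and 10.69 with DMSO and 9.24, 9.37 and 9.20 with gefitinib. It was the most lowered gene of the sterol arm in this comparison, at -1.49 ± 0.16 or 2.8-fold (adjusted p = 2.73e-05). INSIG2 fell less, at -0.72 ± 0.12 (adjusted p = 7.15e-04). SREBF1 had 8.37, 8.08 and 8.08 with DMSO and 7.62, 7.40 and 7.74 with gefitinib, also without overlap (-0.59 ± 0.12, adjusted p = 0.00227). SREBF2 and SCAP were not called, with changes of 0.17 (95% interval -0.099 to 0.44) and 0.12 (-0.093 to 0.33). SREBF2 was the dimmest of these, with levels near 5, and was detected on 11 of the 12 arrays.

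In the fatty acid arm 4 of 11 members were called, with sizes that varied widely. ELOVL6, which lengthens palmitate to stearate, had 11.07, 10.77 and 10.87 with DMSO and 9.22, 9.01 and 8.89 with gefitinib. This was the most lowered member of either arm, 3.64-fold down (-1.86 ± 0.12, adjusted p = 4.40e-07). SCD, the desaturase that makes oleate from stearate, had 12.51, 12.54 and 12.52 with DMSO and 11.22, 11.24 and 11.17 with gefitinib. The arrays of each group lay close together and the groups stood well apart (-1.31 ± 0.085, adjusted p = 6.07e-07). FASN, the synthase of palmitate, had 12.71, 12.72 and 12.79 with DMSO and 12.24, 12.19 and 12.12 with gefitinib, a smaller step that still separated all arrays (-0.55 ± 0.086, adjusted p = 4.93e-04). FADS1, the delta-5 desaturase of polyunsaturated fatty acids, fell by a change of -0.61 ± 0.11 (adjusted p = 0.00179). ACLY, ACSS2 and ME1, which supply acetyl-CoA and NADPH, were not called, at -0.062, -0.12 and -0.33. Neither were ACACA, the carboxylase ahead of FASN, ELOVL5, nor ACSL1, which activates free fatty acids. FADS2, the delta-6 desaturase, was detected only on the 3 gefitinib monoculture arrays and passed the filter through them. Its change of 0.27, the top of the arm's range, is therefore given as a description only. It stays among the 11 in the counts, medians and means of the arm.

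The second comparison asked what gefitinib did in cells that shared medium with fibroblasts. Few genes were called at all: 0.884% of the 13577 genes fell and 0.619% rose, 120 and 84 genes, or 113 and 50 with median scaling. Among the members, 5 of 22 in the sterol arm and 3 of 11 in the fatty acid arm fell, and none rose in limma. The 5 were HMGCS1, MSMO1, INSIG1, SREBF1 and MVD, and the 3 were ACSS2, SCD and FASN. At an unadjusted p under 0.05, 14 sterol and 7 fatty acid members were lower and 0 were higher. Over all 13577 genes, 851 were lower and 757 higher at that threshold. The arm medians were -0.26, in a range of -1.01 to 0.06, and -0.30, in a range of -0.70 to 0.03, against -0.00253 over all genes. The co-culture arrays without and with gefitinib did not overlap, gefitinib lower, for 14 of the 22 and 8 of the 11, against 8.05% of all genes.

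**Figure D2:**
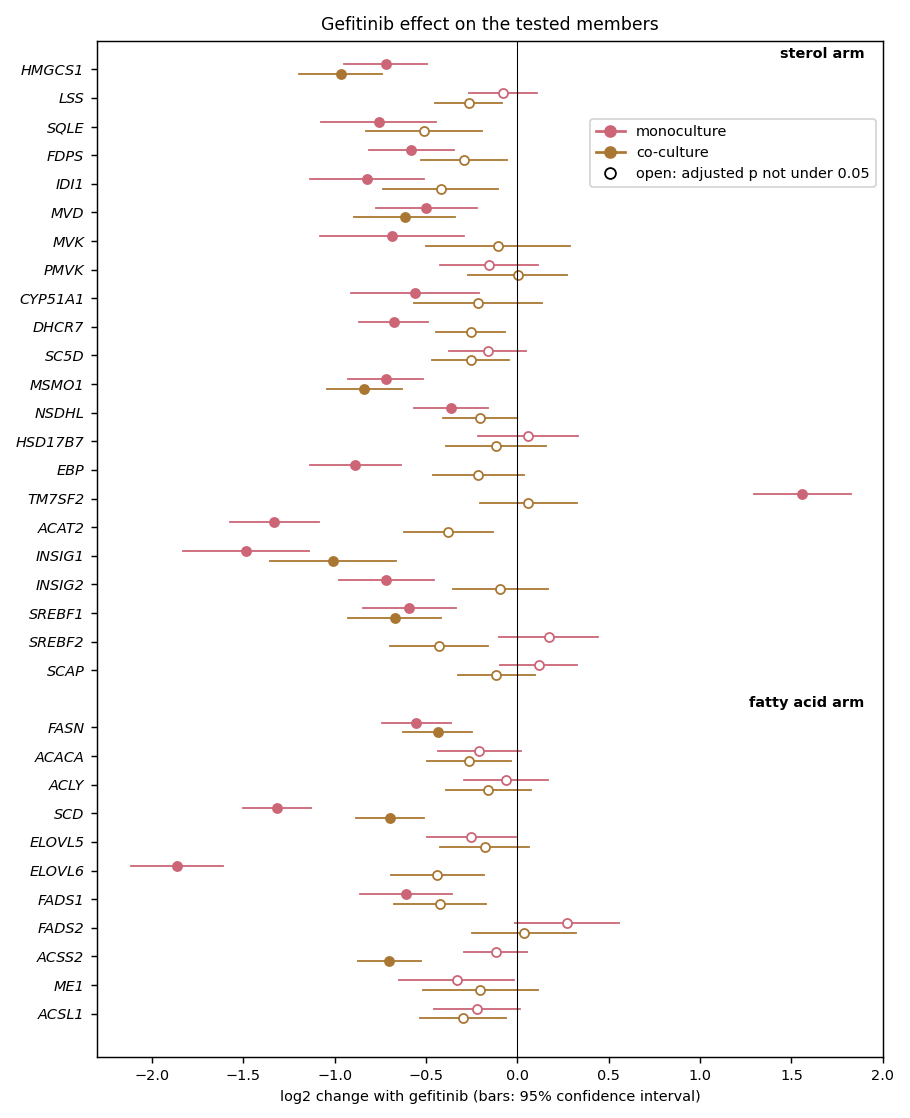
Log2 change with gefitinib for each of the 33 tested members, in monoculture and in co-culture, with bars for 95% confidence intervals and filled points for an adjusted p under 0.05. Filled points number 20 in monoculture and 8 in co-culture, and TM7SF2 is the only filled point to the right of 0.

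HMGCS1 had 10.38, 10.21 and 10.31 in co-culture and 9.49, 9.24 and 9.27 in co-culture with gefitinib. The drug-treated arrays lay well below, and the change of -0.97 ± 0.10 (adjusted p = 7.21e-04) was second in size to that of INSIG1 among members here. MSMO1 had 10.60, 10.59 and 10.44 without and 9.67, 9.66 and 9.79 with gefitinib, again with no overlap (-0.84 ± 0.093, adjusted p = 8.38e-04). INSIG1 had 10.48, 11.11 and 11.12 without drug, a wide group, and 9.92, 9.76 and 10.00 with it. The fall was 2.01-fold (-1.01 ± 0.16, adjusted p = 0.00744). SREBF1 had 8.65, 8.61 and 8.63 without and 8.07, 7.92 and 7.87 with gefitinib, so each treated array lay below each untreated one (-0.67 ± 0.12, adjusted p = 0.0137). MVD fell by a change of -0.62 ± 0.13 (adjusted p = 0.0349). The call of SREBF1 was lost without co-culture array 1 (adjusted p = 0.0572) or gefitinib co-culture array 3 (0.0599). That of MVD was lost without any 1 of 5 arrays, all but gefitinib co-culture array 2 (adjusted p 0.0643 to 0.138).

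SCD had 12.62, 12.60 and 12.53 in co-culture and 11.85, 11.79 and 12.02 with gefitinib, a fall of 1.62-fold (-0.70 ± 0.085, adjusted p = 0.00147). ACSS2, which makes acetyl-CoA from acetate, had 9.37, 9.37 and 9.36 without and 8.71, 8.57 and 8.71 with gefitinib. On its chosen probe it was the one member called lower here and not in monoculture (-0.70 ± 0.079, adjusted p = 8.42e-04). Another bright ACSS2 probe moved by -0.88, and by -0.29 with gefitinib in monoculture (adjusted p over all kept probes 0.0346). A dim probe gave 0.03 in co-culture, and the mean of the probes was not called (adjusted p = 0.0747). FASN had 12.68, 12.74 and 12.87 without and 12.36, 12.26 and 12.37 with gefitinib. Its groups stayed apart, but the call (-0.44 ± 0.086, adjusted p = 0.0297) was lost without any 1 of the 6 arrays (adjusted p 0.0527 to 0.0997). ELOVL6, with 11.23, 11.09 and 11.09 without and 10.66, 10.61 and 10.82 with gefitinib, was lower on every treated array and was not called (-0.44 ± 0.12, adjusted p = 0.114). TM7SF2 showed no such separation, with 6.49, 6.67 and 6.80 without and 6.76, 6.54 and 6.84 with gefitinib (95% interval -0.21 to 0.32).

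When only the 6 co-culture arrays were fitted, 2 sterol members (HMGCS1 and MSMO1) and 1 fatty acid member (ACSS2) kept their calls. INSIG1, SCD, SREBF1, MVD and FASN then had adjusted p between 0.0656 and 0.215, with 61 calls over all genes in place of 204. On the authors' normalized table, and likewise without background correction, 12 members were called lower, with SQLE, ACAT2, ELOVL6 and FADS1 added.

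The interaction asks whether the gefitinib effect itself differed between co-culture and monoculture, and draws on all 4 groups. It was called for 9 of the 33 members: 6 had a higher value in co-culture (a smaller fall) and 3 a lower one. Over all genes 18% were called, 8.06% higher and 9.91% lower. Those called higher were ELOVL6 (1.42 ± 0.16, adjusted p = 1.62e-04), ACAT2 (0.95 ± 0.16, adjusted p = 0.00168), EBP, SCD, INSIG2 and DHCR7. EBP differed by 0.67, SCD by 0.62, INSIG2 by 0.62 and DHCR7 by 0.42. The call of INSIG2 was lost without any 1 of 5 arrays (DMSO 3, gefitinib 2, co-culture 1 or 2, gefitinib co-culture 1; adjusted p 0.0521 to 0.0589). That of DHCR7 was lost without any 1 of 8 of the 12 arrays (adjusted p 0.055 to 0.082), all but gefitinib 2, co-culture 1 or 3, and gefitinib co-culture 2. SCD fell in both settings, and the remaining 5 fell in monoculture and were not called in co-culture.

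TM7SF2 had the largest member difference in the opposite direction, at -1.50 ± 0.17 (adjusted p = 1.55e-04). Its level in gefitinib monoculture stood alone, while the other groups spanned 6.49 to 7.03. ACSS2 differed by -0.58 ± 0.11 (adjusted p = 0.00414), lost to the mean of its probes. SREBF2, at -0.60 ± 0.17 (adjusted p = 0.0344), lost its call on the authors' normalized table, where the difference was -0.17, and without any 1 of 7 of the 12 arrays (adjusted p 0.0566 to 0.0823), all but DMSO 1 or 2, gefitinib 3, co-culture 1, and gefitinib co-culture 3. Its levels were 5.08, 5.28 and 5.16 in co-culture and 4.72, 4.64 and 4.87 with gefitinib, all close to background.

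For the remaining members called lower with gefitinib in monoculture, the interaction was not called. For HMGCS1 the difference was -0.25 (95% interval -0.57 to 0.073) and for MSMO1 -0.12 (-0.41 to 0.17). It was 0.12 for FASN (-0.15 to 0.39), -0.081 for SREBF1 (-0.44 to 0.28) and 0.48 for INSIG1 (-0.0078 to 0.96). All of these intervals hold 0, and a p that misses the threshold does not show that the effects were alike.

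Over the 33 members, 7 fell with gefitinib in both settings (HMGCS1, MVD, MSMO1, INSIG1, SREBF1, FASN and SCD), 12 fell in monoculture and were not called in co-culture, and ACSS2, on its chosen probe, was called lower in co-culture and not in monoculture. Both changes were negative for 27. Over all 13577 genes, 74 fell in both settings and 3631 had both changes negative. The changes in the 2 settings, which share no arrays, correlated across the 33 members with Pearson's r = 0.54 and Spearman's rho = 0.53, and across all 13577 genes with 0.25 and 0.16. Genes are not independent replicates, so this is a description.

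**Figure D3:**
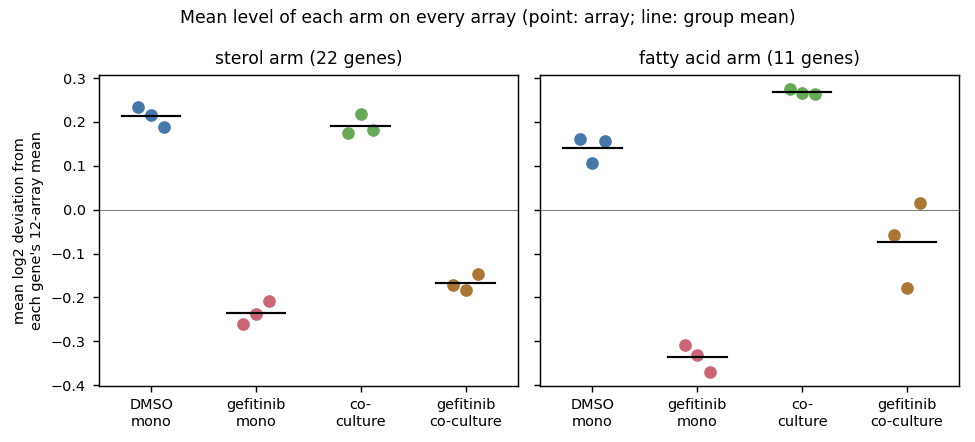
Mean level of each arm on each of the 12 arrays, after each gene's mean over the arrays was subtracted (log2), with points for arrays and a line per group mean. Both arms are lower on the gefitinib arrays than on the untreated arrays of the same culture state, and the fatty acid arm is most spread in co-culture with gefitinib.

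The arms can be set side by side as the mean over their genes on each array, each gene centred on its mean over the 12 arrays. The sterol arm stood at 0.21 ± 0.02 with DMSO and -0.24 ± 0.03 with gefitinib in monoculture, and at 0.19 ± 0.02 and -0.17 ± 0.02 in co-culture (SD, n = 3). The fatty acid arm stood at 0.14 ± 0.03 and -0.34 ± 0.03 in monoculture, and at 0.27 ± 0.0068 and -0.07 ± 0.098 in co-culture. Such means take in members with large changes, the rise of TM7SF2 in the sterol arm included. By the median over members, the gefitinib change in monoculture was -0.59 for the sterol arm and -0.25 for the fatty acid arm. In co-culture these medians were -0.26 and -0.30. In monoculture, ELOVL6 and SCD had the largest changes of the fatty acid arm, and called members of the sterol arm came from the mevalonate, post-squalene and regulator segments alike. In monoculture 68.2% of the sterol arm and 36.4% of the fatty acid arm fell, beside 14.5% of all genes. In co-culture the shares were 22.7% and 27.3%, beside 0.884% of all genes. The difference between arms was not tested.

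The third comparison set co-culture against monoculture without the drug, and it shares its arrays with the comparisons above. Of the 33 members, 3 rose and none fell in limma (2 were lower at an unadjusted p under 0.05), beside 1.64% higher and 1.89% lower over all genes. These were 223 and 257 genes, or 149 and 103 with median scaling. ACSL1 had 7.33, 7.37 and 7.41 in monoculture and 7.94, 8.02 and 8.04 in co-culture, clearly apart (0.63 ± 0.11, adjusted p = 0.0112). CYP51A1 had 6.77, 6.64 and 6.30 in monoculture and 7.37, 7.49 and 7.01 in co-culture (0.72 ± 0.16, adjusted p = 0.0351), a call lost without any 1 of 4 arrays (DMSO 2 or 3, co-culture 1 or 2; adjusted p 0.0876 to 0.127). ACSS2 rose from 9.02, 8.97 and 8.99 to 9.37, 9.37 and 9.36 (0.37 ± 0.079, adjusted p = 0.0295), a call lost without any 1 of the 6 arrays (adjusted p 0.0688 to 0.108). SREBF1 was higher on every co-culture array and was not called (0.45 ± 0.12, adjusted p = 0.0601). The arm medians were -0.07 and 0.06, against -0.03 for all genes.

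With gefitinib in both arms of the comparison, co-culture against monoculture gave more calls. It shares the gefitinib monoculture arrays with the first comparison, so the values of both are not independent. Of 22 sterol members, 9 were higher and 4 lower, and of 11 fatty acid members 3 were higher and 0 lower by limma (2 lower at an unadjusted p under 0.05), beside 14.5% and 20.8% of all genes. The 2 were ACSS2 and FADS2. FADS2 passed the filter only through the gefitinib monoculture arrays, so a lower value against them was built in. ELOVL6 was 3.15-fold higher in co-culture with gefitinib than in gefitinib monoculture (1.66 ± 0.12, adjusted p = 1.14e-06). CYP51A1, at 6.89, 7.28 and 7.05 against 5.95, 5.95 and 6.13, was 2.09-fold higher (1.06 ± 0.16, adjusted p = 3.29e-04). INSIG1 differed by 0.63, ACAT2 by 0.61, IDI1 by 0.60, SCD by 0.67 and ACSL1 by 0.55. TM7SF2 was 3.3-fold lower (-1.72 ± 0.12, adjusted p = 1.19e-06). HMGCS1, SREBF2 and SCAP were lower by smaller amounts (-0.29, -0.41 and -0.29), and FDPS, EBP and SREBF1 were higher by 0.37, 0.35 and 0.37. Each of these 6 calls was lost without certain single arrays. HMGCS1 lost it without any but gefitinib co-culture 1 (adjusted p 0.0785 to 0.137) and SCAP without any but gefitinib co-culture 3 (0.0584 to 0.1). SREBF2 lost it without gefitinib monoculture 1 or 2 or gefitinib co-culture 1 or 2 (0.0512 to 0.081). With median scaling HMGCS1 and SCAP changed by -0.16 and -0.17, and on the authors' normalized table SREBF2 changed by -0.11, none of them called. FDPS lost it without gefitinib monoculture 2 or 3 or gefitinib co-culture 2 (0.0588 to 0.0642). EBP lost it without any monoculture array or gefitinib co-culture 2 (0.0582 to 0.113), and SREBF1 without gefitinib monoculture 1 or 2 or gefitinib co-culture 1 (0.0548 to 0.109). Under the same median scaling, the calls over all genes were 2174 lower and 2220 higher in place of 2828 and 1973.

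**Figure D4:**
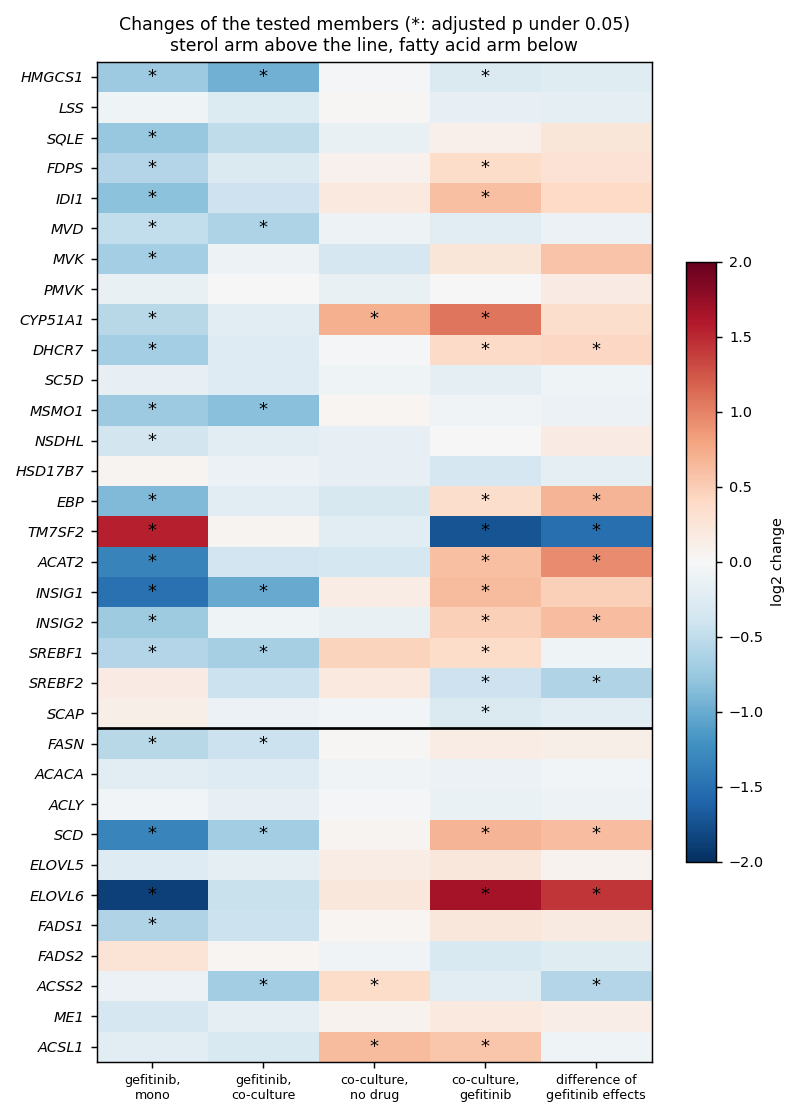
Log2 change of each tested member (rows) in the 4 pairwise comparisons and the interaction (columns), coloured from lower to higher, with a star for an adjusted p under 0.05. The column for gefitinib in monoculture holds 20 stars, that for gefitinib in co-culture 8, and that for co-culture without drug 3.

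Of the tested members, 10 could be read on more than 1 kept probe, with 12 further probes in all. In both gefitinib comparisons 10 of these 12 moved in the same direction as the chosen probe and 2 in the opposite one. A second ELOVL6 probe changed by -1.90 with gefitinib in monoculture and a second INSIG1 probe by -1.68 there and -1.32 in co-culture. MSMO1 was the least settled. Its chosen probe and a second one (-0.38 and -0.71) were lower with gefitinib in monoculture and co-culture, while the remaining one gave 0.35 and 0.12, neither called. Over all kept probes, 28.4% were called with gefitinib in monoculture and 1.16% in co-culture. With the mean of its probes, the monoculture change of MSMO1 was -0.25 (adjusted p = 0.0845). The second SREBF1 probe gave -0.21 and -0.45, not called.

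**Figure D5:**
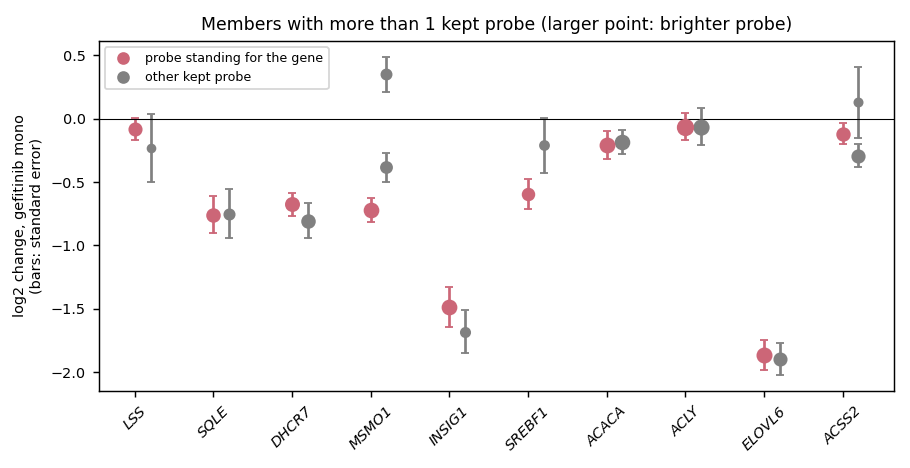
Log2 change with gefitinib in monoculture on every kept probe of the members that have more than 1, with the chosen probe marked and bars for standard errors. The third of the MSMO1 probes lies above 0, and the ELOVL6 and INSIG1 probes lie well below 0.

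Outside the set, 11 further genes of sterol synthesis, uptake and transport were listed, of which 7 were tested. With gefitinib in monoculture 1 of the 7 was not called and 6 fell, beside 14.5% of all genes, among them LRP8, a lipoprotein receptor (-0.997), SCARB1, the HDL receptor (-0.84), and TMEM97, a binding partner of the lysosomal sterol transporter NPC1 (-0.81). In co-culture 1 of 7 fell, LRP8 (-0.66, adjusted p = 0.00701), beside 0.884% of all genes. The interaction was called higher for LBR (1.21), SCARB1 (0.81) and TMEM97 (0.71). Of 9 tested genes that process SREBP precursors or turn over their partners, 2 rose with gefitinib in monoculture, beside 16.9% of all genes, and none were called in co-culture by limma (0 at an unadjusted p under 0.05). The 2 were MBTPS1, the protease that makes the first cut in the Golgi (0.69 ± 0.12, adjusted p = 8.58e-04), and PAQR3, which tethers SCAP to the Golgi (0.59 ± 0.12, adjusted p = 0.00349).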

How the data were processed

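The authors' scanner table holds linear probe intensity values without background subtraction and, beside each, a detection p-value, per the file headers. A second deposited table holds intensity values normalized by the authors. The sources used here do not give the method. Its values were linear, with column medians of 103.586 to 104.67. Biotinylated cRNA came from a MessageAmp kit, per the labels' protocols.

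Rows of the 6 co-culture arrays in the scanner table did not follow its probe names (correlation with the authors' normalized values at most 0.00105, against at least 0.999883 for monoculture arrays). Each row therefore took the probe name whose values it matched in the normalized table. All 48106 matches were mutual (100%), at a median distance of 0.00207 against 0.0720 for the next row, so the names rest on that table. The same procedure returned 100% of 48104 shuffled monoculture rows to their probes.

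Of the 48104 probes used, 30113 had 1 symbol in the platform annotation, 8 several and 17983 none. Intensities were background-corrected with neqc in limma 3.58.1 (R 4.3.3; normexp from the detection p, offset 16), quantile-normalized and put on the log2 scale. Probes detected (p under 0.05) on at least 3 arrays were kept (18238), and each gene took its kept probe with the highest mean; 3602 genes had several. All 12 arrays entered a limma model with a mean per group and moderated variances, with two-sided tests and Benjamini-Hochberg adjustment over 13577 genes at 0.05. The script was tested on simulated data. The number of arrays limits the precision, and nothing states that replicates came from separate cultures, so p-values measure only the spread between these samples, which may be technical.

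The members, lists, named genes and tests were chosen with earlier results of these data known. All members were described; from other lists, at most 4 genes per comparison with the lowest p among those called, besides LBR, named for its shared activity with TM7SF2. Promoters by rule were members called in either gefitinib comparison with TCACNCCAC (0 were found) and TM7SF2; SREBF2, INSIG1 and SCD were added later. Replicate numbers were not used to pair the arrays in the main model. Same-numbered arrays deviated together with r of -0.05 to 0.10, with 1 of 18 pairs above 0.1. For arrays of different numbers r was -0.15 to 0.06, with 0 of 36 above 0.1. These values do not settle whether some arrays were paired, so a block on the number was run as an alternative. Alternatives covered the authors' table, background, scaling, filter, probes, block, arrays fitted and single arrays left out.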

Additional observations from a re-analysis of the deposited data

Results flagged for a closer look

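For 9 of the 33 members the gefitinib change differed between co-culture and monoculture by the interaction test, beside 18% of all genes. Of the 9, 6 were higher and 3 lower, beside 8.06% and 9.91% of all genes. TM7SF2 differed by -1.50 (log2), from a rise of 1.56 in monoculture to 0.059, not called, in co-culture. ELOVL6 differed by 1.42, ACAT2 by 0.95, EBP by 0.67, SCD by 0.62, INSIG2 by 0.62 and DHCR7 by 0.42, each with a smaller fall in co-culture. ACSS2 differed by -0.58 and SREBF2 by -0.60, in the direction of a lower value with gefitinib in co-culture. Culture state and the array set cannot be told apart for any of them. The effect of leaving out single arrays is given with the comparisons.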

How the results depend on the processing

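Of 56 calls of members, 35 held under every alternative run and 0 reversed. The sterol median with gefitinib in monoculture (-0.59) was -0.37 on the authors' normalized table, -0.35 without background correction, -0.68 with median scaling and -0.53 with the mean of kept probes. In co-culture (-0.26) it was -0.21, -0.20, -0.31 and -0.30 under the same 4. The fatty acid median in monoculture (-0.25) was -0.39 with median scaling. Members called lower with gefitinib in co-culture (5 and 3) were 2 and 1 when only the compared groups were fitted, and the fatty acid count was 5 on the authors' table and 5 without background correction. Over all genes that comparison gave 204 calls, 61 with only the compared groups, 346 on the authors' table, 379 without background correction, and 124 without co-culture array 1 or 129 without gefitinib co-culture array 3. Co-culture without drug gave 480, with 903 on the authors' table, 1001 without background correction, 252 with median scaling, 725 with detection on all 12 arrays, 155 with only the compared groups and 154 to 300 with any single array left out. For co-culture without drug, the sterol count (1) was 4 on the authors' table, 4 without background correction, 2 with detection on all 12 arrays and 0 with only the compared groups. The counts of 4 include EBP and ACAT2 called lower, by -0.29 and -0.33 on the authors' table and -0.28 and -0.31 without background correction. For co-culture without drug, the fatty acid count (2) was 1 with median scaling, the mean of probes, the replicate block or only the compared groups. For co-culture with gefitinib, the sterol median (0.06) was 0.16 with median scaling, 0.10 with detection on all 12 arrays, 0.012 with no filter and 0.0016 with the mean of probes, and the fatty acid median (0.19) was 0.30 with median scaling. The sterol interaction median (0.16) was 0.12 on the authors' table, 0.12 without background correction and 0.25 with median scaling. The cause of these shifts was not tested.

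With single arrays left out, the sterol medians ranged from -0.65 to -0.53 for gefitinib in monoculture, -0.32 to -0.26 in co-culture, -0.07 to -0.06 for co-culture without drug, 0.014 to 0.12 with gefitinib, and 0.10 to 0.21 for the interaction. The fatty acid medians ranged from -0.30 to -0.22, -0.34 to -0.22, 0.04 to 0.08, 0.12 to 0.23 and -0.012 to 0.10. Sterol counts were 14 to 16, 3 to 5, 0 to 1, 7 to 12 and 3 to 5, and fatty acid counts 4 to 5, 2 to 2, 1 to 1, 3 to 4 and 3 to 3. With the replicate number as a block, the FASN and MVD calls for gefitinib in co-culture were lost (adjusted p = 0.0667 for FASN), as were those of HMGCS1 for co-culture with gefitinib, ACSS2 for co-culture without drug, and DHCR7 and SREBF2 for the interaction; 6 of 12 arrays correlated best with arrays of their own number. Signal over background limits SREBF2 and FADS2, and 3 arrays per group limit the rest.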

Other observations

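Of 13 tested genes of fatty acid oxidation, 5 rose with gefitinib in monoculture, 8 were not called and 0 fell by limma (0 at an unadjusted p under 0.05), beside 16.9% higher and 14.5% lower over all genes. DECR1, a reductase for unsaturated fatty acids, changed by 0.94 ± 0.098 (adjusted p = 2.63e-05), and ACAA2, the mitochondrial thiolase of the last step, by 0.85 ± 0.16 (adjusted p = 0.00152). ACADVL and HADHB, of the long-chain steps, rose by 0.47 and 0.45. In co-culture none of the 13 were called with gefitinib in limma (0 at an unadjusted p under 0.05), and the interaction was called for 4, all lower, beside 18% of all genes called and 9.91% called lower, with DECR1 at -0.77 (adjusted p = 0.00302). The list's median change was 0.22 in monoculture and -0.0016 in co-culture, beside 0.01 and -0.00253 for all genes.

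Among 11 tested genes of glycerolipid synthesis and lipid droplets, 4 fell and 1 rose with gefitinib in monoculture, beside 14.5% and 16.9% of all genes. FABP5, a fatty acid carrier, fell by a change of -0.84 ± 0.087 (adjusted p = 2.55e-05), PLIN2, a droplet coat protein, by -0.36 and LPIN1, a phosphatidate phosphatase, by -0.42. PNPLA2, the main triglyceride lipase of droplets, rose (0.87 ± 0.22, adjusted p = 0.0116). In co-culture LPIN1 alone of the 11 fell (-0.75 ± 0.082, adjusted p = 7.83e-04), beside 0.884% of all genes. Of 7 tested genes of the liver X receptors and their targets, 2 fell in monoculture, beside the same 14.5%, the cholesterol exporter ABCA1 (-0.82) and the phospholipid-remodelling enzyme LPCAT3 (-0.44), and none were called by limma with gefitinib in co-culture (1 lower at an unadjusted p under 0.05).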
